A study of Mus musculus with 2 samples.

Results

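The TNF superfamily is a set of signalling ligands, most of them held in the membrane of the cell that makes them, and the receptors that bind them. Its members in the synovium of the mouse knee were taken from the gene list of the count matrices by symbol: every symbol of the form Tnf, Tnfsf or Tnfrsf with a number, plus Tnf, Lta, Ltb, Ltbr, Cd40, Cd40lg, Fas, Fasl and Cd70. Of 32285 genes listed, 41 matched, and the 40 with at least 10 unique molecular identifiers (UMIs, each standing for 1 captured transcript) over both libraries were described. Cd70, with 3 UMIs in the MMS library and 3 in the control library, fell short of that minimum, and Tnfsf4, with 10 UMIs in all, just met it. The 40 members were 16 ligands, 14 receptors that bind TRAF adaptors, 5 receptors with a death domain, 3 decoy receptors, Tnfrsf26, which was given no role, and the antisense transcript Tnfsf13os.

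Synovium, the tissue that lines a joint, of wild-type mice had been profiled by single-cell RNA-seq. There was 1 library of mice labelled MMS, with the label D14, and 1 library of control mice, each from 20 pooled knees. The labels spell out neither MMS nor D14, and give no age, sex or strain. With 1 library per group there was no replicate and no test: intervals below are exact 95% intervals that cover counting error only, and a ratio compares these libraries, not the conditions. A difference of at least 2-fold is given as a size, not as a call of significance.

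After filtering, 3765 cells of the MMS library and 6891 of the control library remained, with a median of 17444 and 10990 UMIs per cell. The cells formed 28 clusters, of which 3 stayed unnamed and the others fell into 11 classes named from marker genes. Fibroblast-like cells (1529 MMS, 3214 control), endothelial-like cells (659 MMS, 1682 control), macrophage or monocyte-like cells (484 MMS, 1038 control) and mural-like cells (181 MMS, 147 control) were compared member by member. The labels call the cell type goblet cells, but 0 kept cells had UMIs of at least 2 of 8 goblet cell markers. The makeup of the classes differed between the libraries: neutrophil-like cells numbered 309 in the MMS library and 20 in the control library, and an unnamed cluster with chondrocyte and tendon markers, cluster 27, held 233 MMS cells and 0 control cells. The barcode lists shared 6 barcodes.

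Ligands of this family act as trimers and bring receptors together in the membrane of the target cell. Receptors with a death domain, such as Tnfrsf1a and Fas, can recruit adaptors that lead to cell death or to NF-kappaB signalling, and another group, with Tnfrsf1b and Ltbr, binds TRAF proteins that lead to NF-kappaB and kinase signalling. Decoy receptors bind a ligand without passing on a signal. In joint tissue the family is best known for TNF itself, an inflammatory cytokine made by macrophages and blocked in the treatment of arthritis, and for RANKL (Tnfsf11), which drives osteoclast formation through RANK (Tnfrsf11a) on myeloid precursors and is bound by the soluble decoy osteoprotegerin (OPG, Tnfrsf11b).

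Tnf and Tnfsf11, the ligands on which the macrophage and fibroblast results turn, are shown by their promoters, the 250 bases before the start of the gene in RefSeq (GRCm38.p6). The Tnf promoter lies at chr17:35202008-35202257 and the Tnfsf11 promoter at chr14:78308044-78308293, both on the minus strand. Capitals mark matches, on either strand, to the TATA box TATAAA, to kappaB half-sites (GGG, 5 bases of any kind, then CC) or to the GC box GGGCGG.
Tnf: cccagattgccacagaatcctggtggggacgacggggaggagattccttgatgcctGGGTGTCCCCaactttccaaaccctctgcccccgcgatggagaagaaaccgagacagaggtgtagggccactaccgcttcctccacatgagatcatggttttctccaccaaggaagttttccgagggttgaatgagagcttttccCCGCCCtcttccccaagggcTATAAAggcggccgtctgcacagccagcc
Tnfsf11: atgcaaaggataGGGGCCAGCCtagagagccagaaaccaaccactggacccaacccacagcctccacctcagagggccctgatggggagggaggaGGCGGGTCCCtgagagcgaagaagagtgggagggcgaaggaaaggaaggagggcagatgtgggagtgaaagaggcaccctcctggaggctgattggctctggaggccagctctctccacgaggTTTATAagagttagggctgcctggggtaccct
In the Tnf promoter the matches begin 194 (kappaB), 49 (GC box) and 29 (TATA box) bases before the start. In the Tnfsf11 promoter they begin 238 and 155 (both kappaB) and 32 (TATA box) bases before it, and the TATA box reads on the opposite strand. No printed match overlapped another, and neither promoter held the AP-1 motif TGANTCA. Of 32851 promoters of this length, 12.4% held the TATA box, 45.8% the kappaB half-sites, 32.7% the GC box and 6.75% the AP-1 motif. A match is a description of these letters, not a measured binding site.

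**Figure D1:**
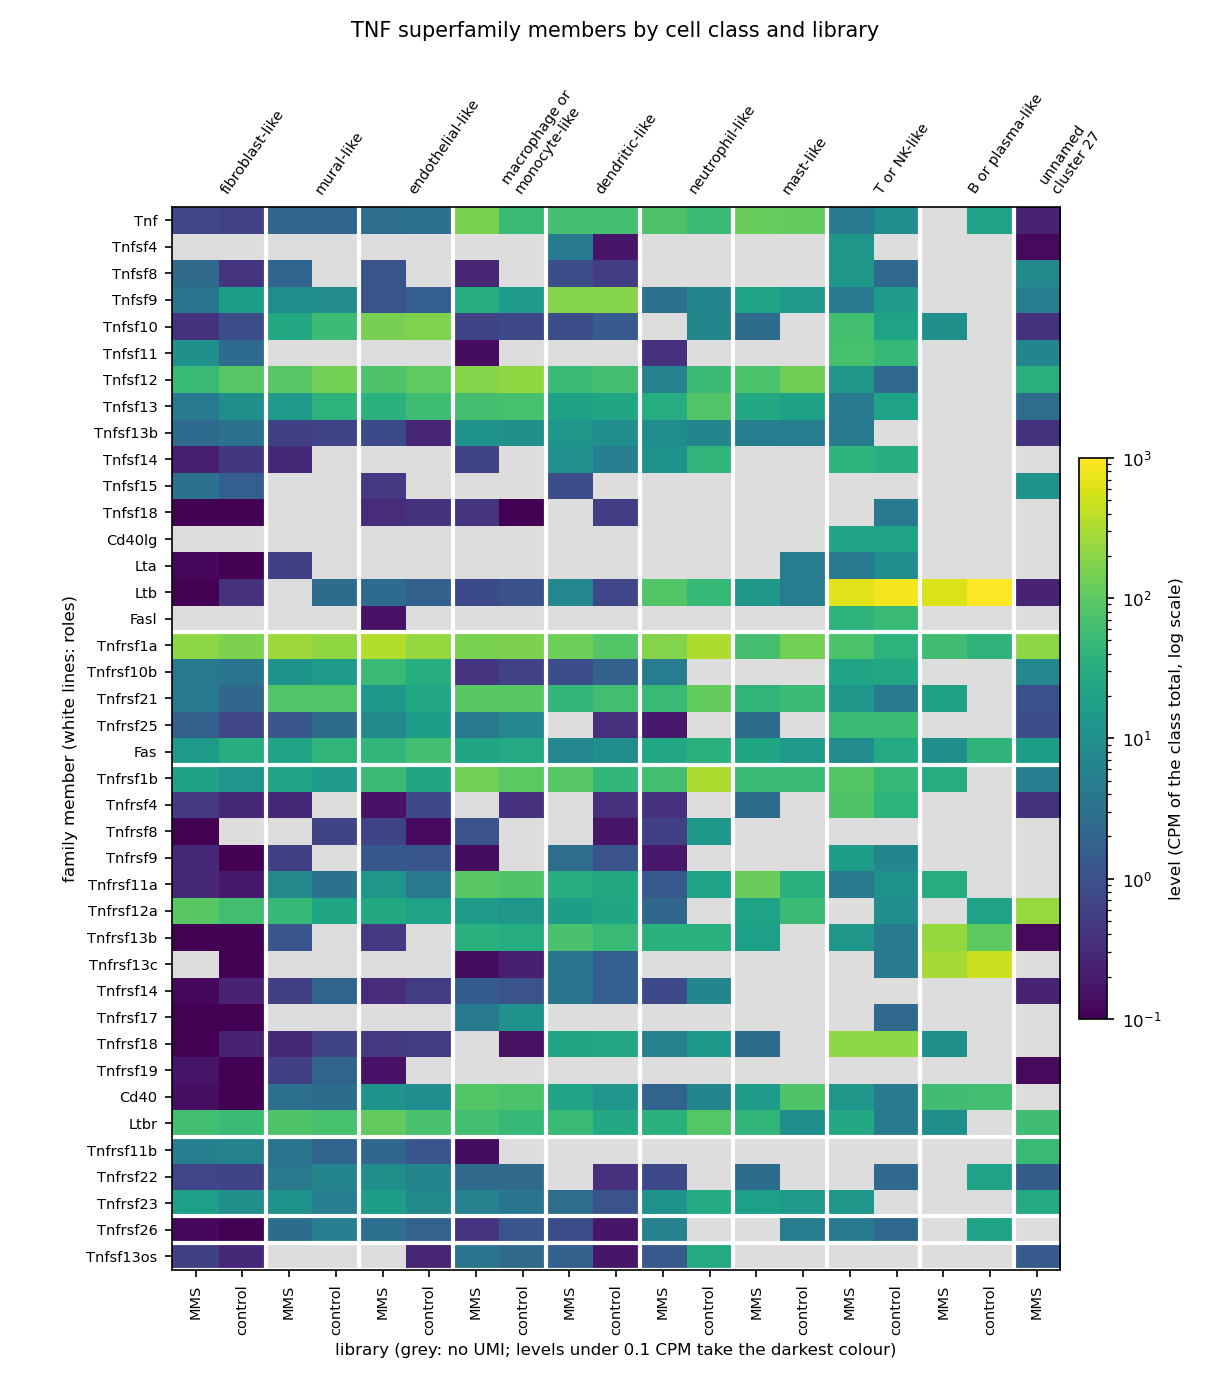
Level of each of the 40 members (down the page, grouped by role) in 9 cell classes and unnamed cluster 27 (across), MMS left of control, as CPM, UMIs scaled to a class total of 1000000 (log colour scale). Tnfrsf1a was detected in every class shown, whereas Tnfsf10 was brightest in endothelial-like cells, Tnf in myeloid and mast-like cells and Ltb in T or NK-like and B or plasma-like cells.

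Several ligands were carried largely by a single class. Endothelial-like cells held 83.2% of the Tnfsf10 UMIs of kept MMS cells and 86.4% of those of control cells. Tnfsf10 encodes TRAIL, the ligand of the death receptor Tnfrsf10b. Macrophage or monocyte-like cells held 65.5% of MMS and 58.8% of control Tnf UMIs. The next largest shares of Tnf were in neutrophil-like cells in the MMS library, with 22.8%, and in dendritic-like cells in the control library, with 32.2%. Fasl, the ligand of Fas used by cytotoxic lymphocytes, had 9 of 10 MMS and 22 of 22 control UMIs in T or NK-like cells. Cd40lg, the T cell signal to Cd40 on antigen-presenting cells, had all of its 5 MMS and 9 control UMIs there. Fibroblast-like cells held 82.1% of MMS and 83.3% of control Tnfsf11 UMIs. This was also the largest class, with 41265337 of 78052208 UMIs of all genes in kept MMS cells and 47834232 of 78244881 in control cells. The CPM of Tnfsf11 was higher in T or NK-like cells (given below), from 16 MMS and 21 control UMIs.

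Receptors ranged from widespread to restricted. Tnfrsf1a, the main TNF receptor of most tissues, reached 207 CPM in MMS and 163 CPM in control fibroblast-like cells, 344 and 233 CPM in endothelial-like cells, and 157 and 164 CPM in macrophage or monocyte-like cells. Macrophage or monocyte-like cells held 80.7% of MMS and 84.7% of control UMIs of Cd40, and 94.4% of MMS and 94.9% of control UMIs of Tnfrsf17. Tnfrsf17 encodes BCMA, a receptor for BAFF and APRIL that is best known from plasma cells, yet B or plasma-like cells, with 20 MMS and 13 control cells, had no UMI of it. Tnfrsf13c, the BAFF receptor of B cells, had 29 of 35 MMS and 24 of 40 control UMIs in B or plasma-like cells. Counts were made near the 3' end of transcripts, so levels are compared between cells here and not between genes.

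In fibroblast-like cells, the ligands Tnfsf11, Tnfsf8 and Tnfsf15 and the death receptor Tnfrsf25 were higher in the MMS library, and the ligand Tnfsf9 and the death receptor Fas were lower. Of 28 members with at least 10 UMIs in the class, 14 differed by at least 2-fold, 6 higher and 8 lower in MMS. Over all 16144 genes with that many UMIs, 20.0% differed by at least 2-fold, 10.2% higher and 9.80% lower. The member count was 7 of 28 with clusters weighted by the smaller of their 2 cell numbers, beside 15.5% of all genes, and 6 of 16 with cells thinned to equal depth, beside 16.4%. The median log2 ratio of MMS over control was 0.23 for the members and 0.06 for all genes. The 11 ligands had a median of -0.85, with 3 at least 2-fold higher and 5 at least 2-fold lower. None of the 3 decoy receptors passed 2-fold. In sublining-like cells, the fibroblasts beneath the surface layer, 10 of 27 members differed by at least 2-fold (6 higher, 4 lower, against 11.6% and 8.26% of all genes). In lining-like cells, the surface layer, 4 of 18 did (1 higher, 3 lower, against 5.28% and 6.89% of all genes).

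Tnfsf11 had 10.2 CPM (421 UMIs, interval 9.25 to 11.2) in MMS fibroblast-like cells, against 2.51 CPM (120 UMIs, interval 2.08 to 3.0) in control fibroblast-like cells. The intervals do not overlap, and the log2 ratio was 2.02 (1.73 to 2.33). At least 1 UMI was found in 170 of 1529 MMS cells, 11.1% (9.59 to 12.8), and in 71 of 3214 control cells, 2.21% (1.73 to 2.78). The MMS cells were deeper, with a median of 26876 UMIs against 13744 in control cells. With each cell thinned to the same number of UMIs, 2.38% of MMS and 0.473% of control cells had a UMI. As background for free RNA, among endothelial-like cells, with median depths of 7522 and 3839 UMIs, 0 of 659 MMS and 0 of 1682 control cells had a Tnfsf11 UMI, which allows shares of cells with a UMI of up to 0.455% and 0.178%.

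The cells that carried Tnfsf11 were not the same in the libraries. In MMS, 76.0% of the fibroblast-like Tnfsf11 UMIs came from cluster 21, led by Mmp13 and Lrrc15, which held 605 MMS and 39 control cells. In control, 74.2% came from cluster 6, led by Ccl19, which held 63 MMS and 385 control cells. Within cluster 21 the level was 19.8 CPM in MMS (320 UMIs) and 13.8 CPM in control (15 UMIs), a log2 ratio of 0.52 with an interval of -0.23 to 1.37 that includes 0. Within cluster 6 it was 36.4 CPM in MMS (56 UMIs) and 13.1 CPM in control (89 UMIs), a log2 ratio of 1.48 (0.97 to 1.98). Cluster 8, led by Cxcl12, had 10.9 CPM in MMS and 3.38 CPM in control (24 and 6 UMIs, log2 ratio 1.68, 0.35 to 3.26). Weighting each cluster by the smaller of its 2 cell numbers gave a log2 ratio of 1.22 for the class, and leaving out cluster 21 gave 0.84, inside 2-fold. The UMIs lay in few cells: 13 of 63 MMS and 53 of 385 control cells in cluster 6. In cluster 8 they lay in 6 of 128 MMS and 3 of 118 control cells. The intervals do not take into account that UMIs share a cell. By UMI counts Tnfsf11 was thus higher in MMS within clusters 6 and 8 as well as over the class, and by less than over the class. The lining fibroblasts of cluster 15, marked by Prg4, had 2 MMS and 0 control UMIs.

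Tnfrsf11b, the decoy for RANKL, had 5.07 CPM (209 UMIs) in MMS and 6.15 CPM (294 UMIs) in control fibroblast-like cells, a log2 ratio of -0.28 (-0.54 to -0.02). Its direction was not the same among clusters. Cluster 10, led by Slurp1, carried 79.9% of the control UMIs of the class. There Tnfrsf11b had 85.1 CPM in MMS (56 UMIs, in 12 of 30 cells) and 28.8 CPM in control (235 UMIs, in 77 of 515 cells). The log2 ratio was 1.57 (1.12 to 1.99), an interval that does not take into account that UMIs share a cell. The Mmp13 cluster carried 56.5% of the MMS UMIs of the class, at 7.30 CPM in MMS (118 UMIs) and 10.2 CPM in control (11 UMIs). The lining fibroblasts of cluster 15 had 1.63 CPM in MMS and 6.26 CPM in control (29 and 37 UMIs, log2 ratio -1.94, -2.69 to -1.20). The class value had no stable sign: it was 0.28 with the clusters weighted by the smaller cell number and 0.18 with each cell weighted equally. In the MMS library most Tnfrsf11b UMIs lay outside fibroblast-like cells, since unnamed cluster 27 held 61.6% of them at 49.9 CPM.

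**Figure D2:**
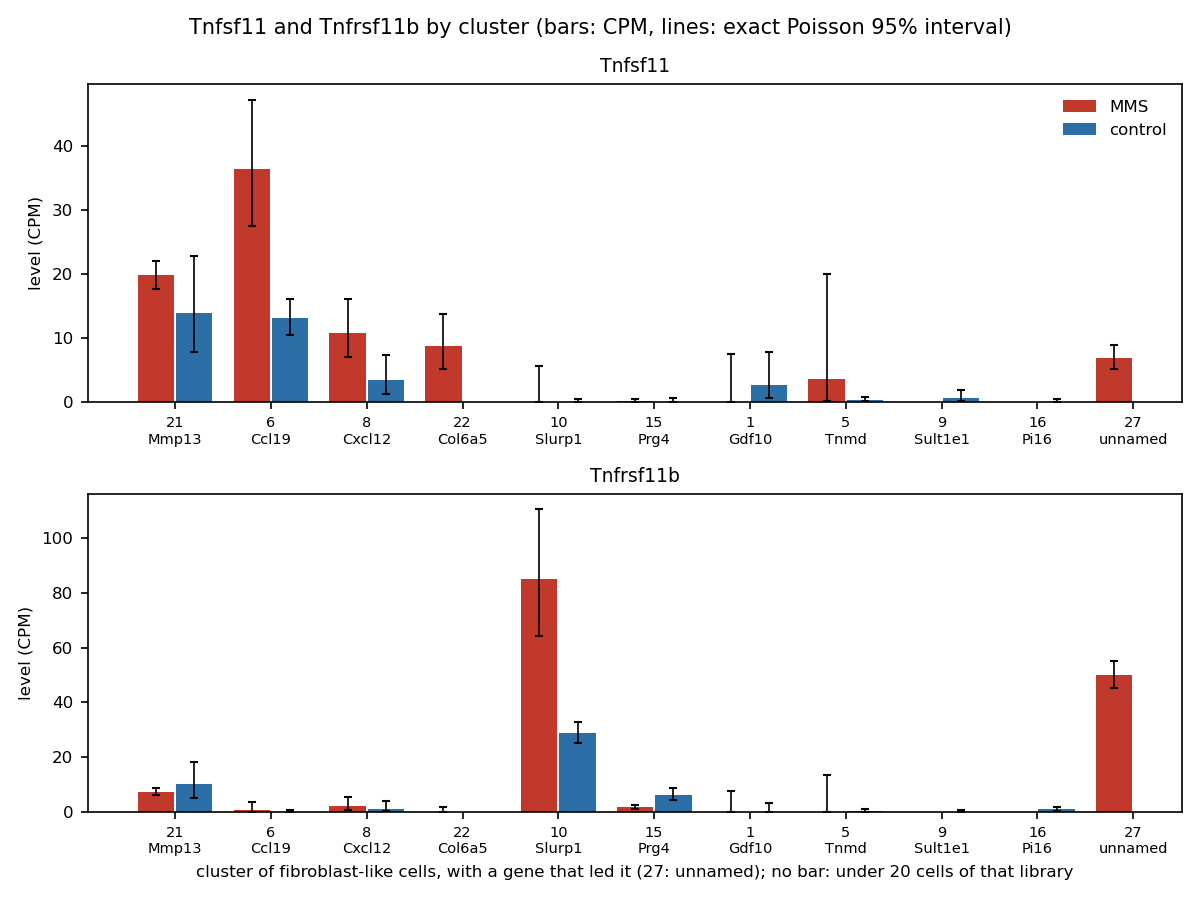
Level of Tnfsf11 (top) and Tnfrsf11b (bottom) in CPM in the clusters of fibroblast-like cells and in unnamed cluster 27, MMS in red left of control in blue, with exact Poisson 95% intervals as lines and no bar where a library had under 20 cells. Tnfsf11 reached 36.4 CPM in MMS and 13.1 CPM in control cells of the Ccl19 cluster, and Tnfrsf11b 85.1 and 28.8 CPM in the Slurp1 cluster, so the highest bars of ligand and decoy stand in different clusters.

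The Tnfsf11 UMIs per Tnfrsf11b UMI, a measure that the class total cannot move, were 2.01 in MMS and 0.408 in control fibroblast-like cells, a log2 difference of 2.30 (normal interval on the log scale 1.91 to 2.69). Within cluster 21 the ratio was 2.71 in MMS and 1.36 in control, and the interval of the log2 difference, -0.17 to 2.16, includes 0. With cluster 27 counted as fibroblast-like, the log2 difference was 0.95. It was also 0.95 with clusters weighted by the smaller cell number, so its size rests on which clusters are counted. Tnfrsf11a, the receptor RANK, was carried by macrophage or monocyte-like cells, at 94.6 CPM in MMS and 79.6 CPM in control (log2 ratio 0.25, 0.11 to 0.39). Fibroblast-like cells had only 12 MMS and 9 control Tnfrsf11a UMIs. Within macrophage clusters 12 and 14, Tnfrsf11a had 98.3 and 57.7 CPM in MMS, against 92.9 and 61.1 CPM in control.

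Tnfsf8, the ligand of CD30, had 2.38 CPM in MMS and 0.397 CPM in control fibroblast-like cells (98 and 19 UMIs, log2 ratio 2.58, 1.86 to 3.37). Tnfsf15, the ligand TL1A of the death receptor Tnfrsf25, had 3.27 CPM in MMS and 1.55 CPM in control (135 and 74 UMIs, log2 ratio 1.08, 0.66 to 1.51). Both were carried by the Mmp13 cluster in MMS, which held 75.5% of the Tnfsf8 and 85.2% of the Tnfsf15 UMIs of the class. Within that cluster neither was higher in MMS: Tnfsf15 had 7.11 CPM in MMS and 16.6 CPM in control (115 and 18 UMIs, log2 ratio -1.22, -1.95 to -0.42). Tnfsf8 there had 4.58 CPM in MMS and 9.23 CPM in control (74 and 10 UMIs, log2 ratio -1.01, -1.97 to 0.11). The control UMIs of this cluster lay in 4 of 39 cells for Tnfsf15 and in 3 of 39 for Tnfsf8. The intervals do not take this into account. The shares of cells with a UMI were 10.6% in MMS and 10.3% in control for Tnfsf15, and 5.62% and 7.69% for Tnfsf8. With clusters weighted by the smaller cell number the class ratios were 1.38 for Tnfsf8 and -0.058 for Tnfsf15. Tnfrsf25 itself had 1.60 CPM in MMS and 0.711 CPM in control (66 and 34 UMIs, log2 ratio 1.17, 0.55 to 1.81), and -0.77 with clusters weighted.

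Tnfsf9, the ligand of 4-1BB, had 3.61 CPM in MMS and 17.4 CPM in control fibroblast-like cells (149 and 831 UMIs, log2 ratio -2.27, -2.53 to -2.01). Of the control UMIs, 45.5% came from cluster 16, led by Pi16, which held 7 MMS and 618 control cells. The Slurp1 cluster had 27.4 CPM in MMS and 24.4 CPM in control (log2 ratio 0.17), and the cluster-weighted class ratio was -0.40. The gap for Tnfsf9 was thus smaller where like clusters were compared. Fas had 15.4 CPM in MMS and 31.5 CPM in control (635 and 1508 UMIs, log2 ratio -1.04, -1.17 to -0.90), and its cluster-weighted ratio stayed at -0.77. Tnfsf12, the ligand TWEAK, had 51.6 CPM in MMS and 92.8 CPM in control (log2 ratio -0.85, -0.92 to -0.77).

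Tnfrsf12a, the TWEAK receptor Fn14, had 93.4 CPM in MMS and 61.9 CPM in control fibroblast-like cells, a log2 ratio of 0.60. It was found in 59.0% of MMS and 34.5% of control cells. Within the Mmp13 cluster it had 116 CPM in MMS and 134 CPM in control, and in the lining cluster 92.0 and 107 CPM, so it was not higher inside either cluster. It was higher in the Slurp1 cluster (111 CPM in MMS and 76.7 CPM in control, log2 ratio 0.53, 0.16 to 0.88) and in cluster 5, led by Tnmd (75.4 and 38.9 CPM, 0.95, 0.25 to 1.59). The cluster-weighted class ratio was -0.15, so its direction depends on the clusters counted. Unnamed cluster 27 had 240 CPM, with a UMI in 212 of 233 cells. The TNF receptors Tnfrsf1a and Tnfrsf1b had log2 ratios of 0.34 and 0.68. Ltbr, the lymphotoxin beta receptor, had 60.7 CPM in MMS and 54.2 CPM in control, and the decoy receptor Tnfrsf23 had 18.4 and 9.55 CPM. Tnfsf13b, the ligand BAFF, had 2.47 CPM in MMS and 3.14 CPM in control (log2 ratio -0.34), but its cluster-weighted ratio was 1.28. In cluster 1, led by Gdf10, it had 87.7 CPM in MMS and 32.3 CPM in control (43 and 36 UMIs, log2 ratio 1.44, 0.77 to 2.12), so its direction depends on the clusters counted.

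The other 14 members with at least 10 UMIs in fibroblast-like cells had few UMIs or were higher elsewhere. Of these, Tnfrsf21 (189 MMS and 101 control UMIs) and Tnfrsf9 (12 and 2 UMIs, of which 8 were in 1 cell) were at least 2-fold higher in MMS. Those at least 2-fold lower were Tnfsf13 (190 MMS and 468 control UMIs), Tnfsf10 (16 and 42), Tnfsf14 (9 and 21), Ltb (4 and 18), Tnfrsf14 (5 and 12) and Tnfrsf18 (1 and 11). Tnf had 29 UMIs in each library in this class. Tnfsf13os overlaps both Tnfsf12 and Tnfsf13 on chromosome 11 (GRCm38), with Tnfsf12 at 69686250 to 69695849 and Tnfsf13 at 69682846 to 69685784 on the minus strand and Tnfsf13os at 69682138 to 69691141 on the plus strand. A read-through transcript joins Tnfsf12 and Tnfsf13 in the annotation, so the split of their counts is uncertain. The same holds for the neighbouring paralogs Tnfrsf22, Tnfrsf23 and Tnfrsf26 on chromosome 7.

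Macrophage markers summed to 77.0 CPM in MMS and 76.8 CPM in control fibroblast-like cells, and all 10 neutrophil markers were detected in MMS, summing to 68.6 CPM, against 6 of 10 and 1.0 CPM in control. Their part in the fibroblast-like results was not tested.

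**Figure D3:**
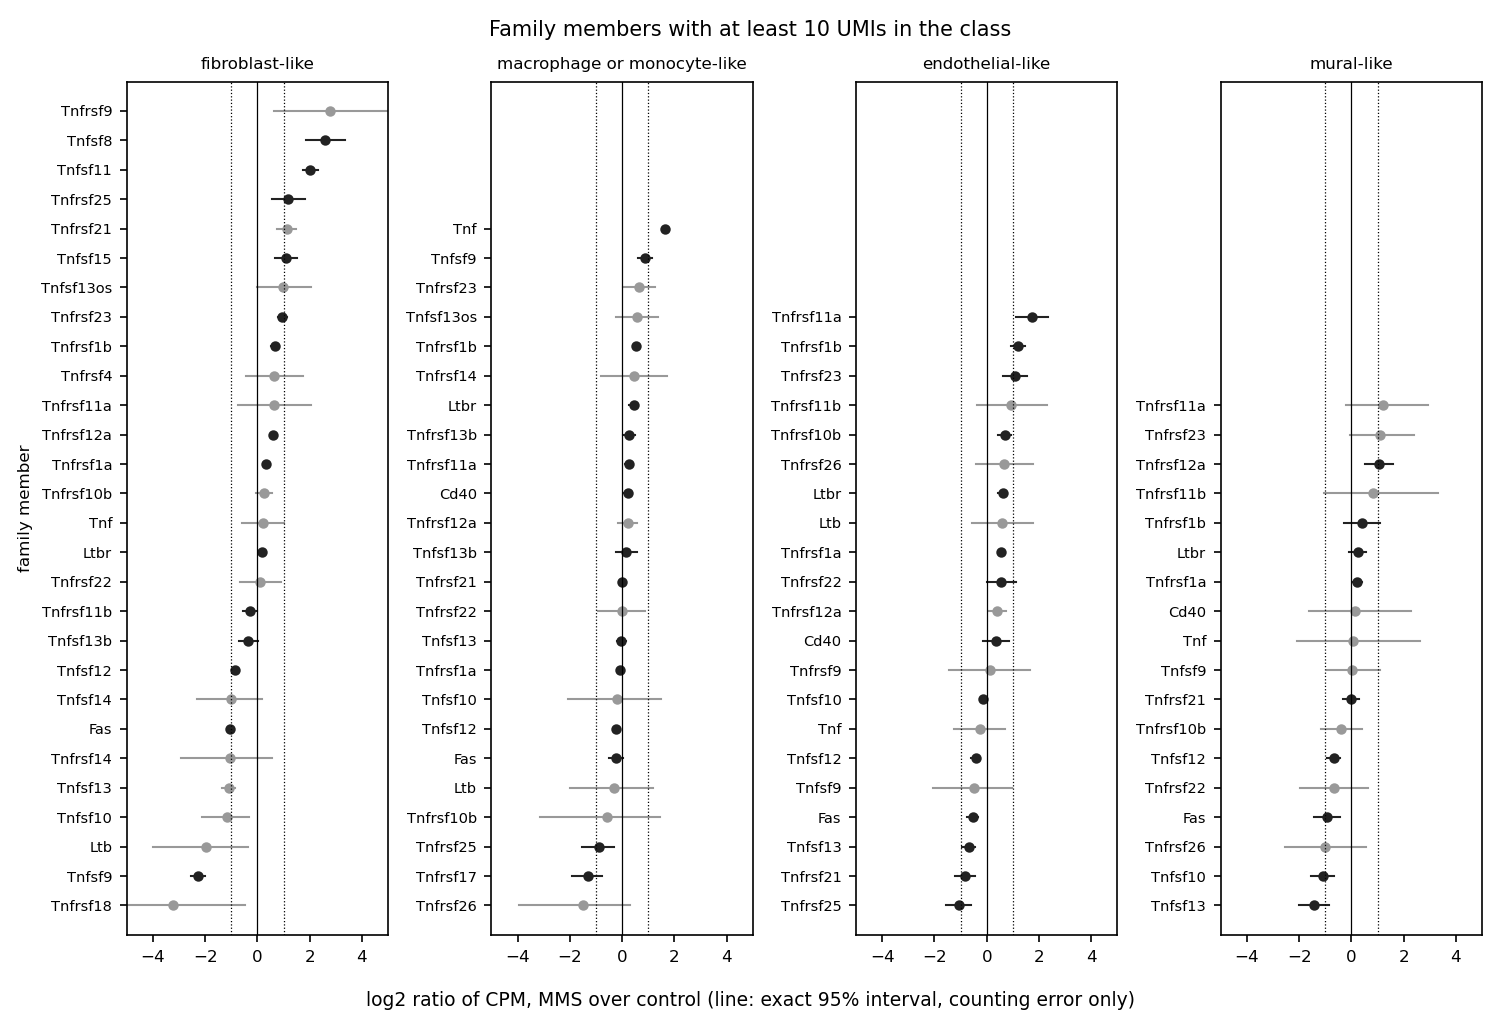
log2 ratio of MMS over control (across) for each member with at least 10 UMIs in the class (down), in the 4 classes compared, with exact 95% intervals as lines, black for members that met the naming rule and grey for the others, and dotted lines at 2-fold. Tnfsf11 stands at 2.02 in fibroblast-like cells, Tnf at 1.65 in macrophage or monocyte-like cells and Tnfrsf1b at 1.21 in endothelial-like cells, while Tnfrsf1a stays inside 2-fold in all 4 classes.

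In macrophage or monocyte-like cells the member that stood out was Tnf itself, at 157 CPM in MMS (1171 UMIs) and 49.8 CPM in control (659 UMIs), a log2 ratio of 1.65 (1.51 to 1.79). Tnf was found in 62.2% (57.7 to 66.5) of MMS and 32.6% (29.7 to 35.5) of control cells, and in 23.4% and 8.17% after thinning to equal depth. As background for free RNA, fibroblast-like cells, with higher median depths, had a Tnf UMI in 1.05% of MMS and 0.871% of control cells. The difference held in both macrophage clusters: cluster 12, led by Vsig4 and Cx3cr1, had 164 CPM in MMS and 54.3 CPM in control (log2 ratio 1.60). Cluster 14, led by Cd209f and Mrc1, had 77.0 CPM in MMS and 43.5 CPM in control (log2 ratio 0.82, 0.36 to 1.26). In other Tnf-carrying classes the libraries were closer: dendritic-like cells had 63.0 CPM in MMS and 63.8 CPM in control, and mast-like cells had 119 and 108 CPM.

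Of 24 members with at least 10 UMIs in macrophage or monocyte-like cells, 3 differed by at least 2-fold, 1 higher and 2 lower. Of 12849 genes with that many UMIs 9.69% did, 5.07% higher and 4.62% lower. The median log2 ratio of the members was 0.08. Tnfrsf17 was lower, at 4.54 CPM in MMS and 11.3 CPM in control (34 and 150 UMIs, log2 ratio -1.32, -1.90 to -0.77). Its control UMIs lay mostly in cluster 14, whereas more of its MMS UMIs lay in the larger cluster 12. Its level was 17.8 CPM in MMS and 23.6 CPM in control in cluster 14, and 3.23 and 2.59 CPM in cluster 12. Cluster 14 held 62 MMS and 490 control cells, and the cluster-weighted class ratio of Tnfrsf17 was -0.05. The other lower member, Tnfrsf26, had 3 MMS and 15 control UMIs.

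In the macrophage or monocyte-like class Tnfsf9 was higher, with 29.9 CPM in MMS and 16.4 CPM in control (log2 ratio 0.87, 0.59 to 1.14), opposite to its direction in fibroblast-like cells. Of its 217 control UMIs in the class, 43 were in 1 cell, which the interval does not take into account. The difference between the classes was not tested. The difference lay in cluster 12, with 30.3 CPM in MMS and 8.69 CPM in control (log2 ratio 1.80, 1.40 to 2.22). Cluster 14 had 26.7 CPM in MMS and 27.2 CPM in control, and dendritic-like cells had 178 and 188 CPM, so no difference of that size was seen there. Tnfrsf1b, the TNF receptor of immune cells and endothelium, had 141 CPM in MMS and 98.1 CPM in control macrophage or monocyte-like cells (log2 ratio 0.52). Ltbr had 63.9 and 47.0 CPM.

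The remaining members that met the naming rule in macrophage or monocyte-like cells lay near equality or had few UMIs. Cd40 had 85.7 CPM in MMS and 73.4 CPM in control (log2 ratio 0.22, and -0.11 with clusters weighted), and the BAFF and APRIL receptor Tnfrsf13b (TACI) had 36.2 and 30.2 CPM. The death receptors Fas (23.1 and 27.5 CPM) and Tnfrsf21 (94.5 and 94.3 CPM) and the ligands Tnfsf12 (186 and 219 CPM), Tnfsf13 or APRIL (67.1 and 68.3 CPM) and Tnfsf13b (11.5 and 10.3 CPM) all lay within 1.5-fold. Tnfrsf25 had 4.01 CPM in MMS and 7.49 CPM in control. Neutrophil markers summed to 158 CPM in MMS and 12.4 CPM in control cells of this class, and fibroblast markers to 312 and 167 CPM. Their part in these results was not tested.

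**Figure D4:**
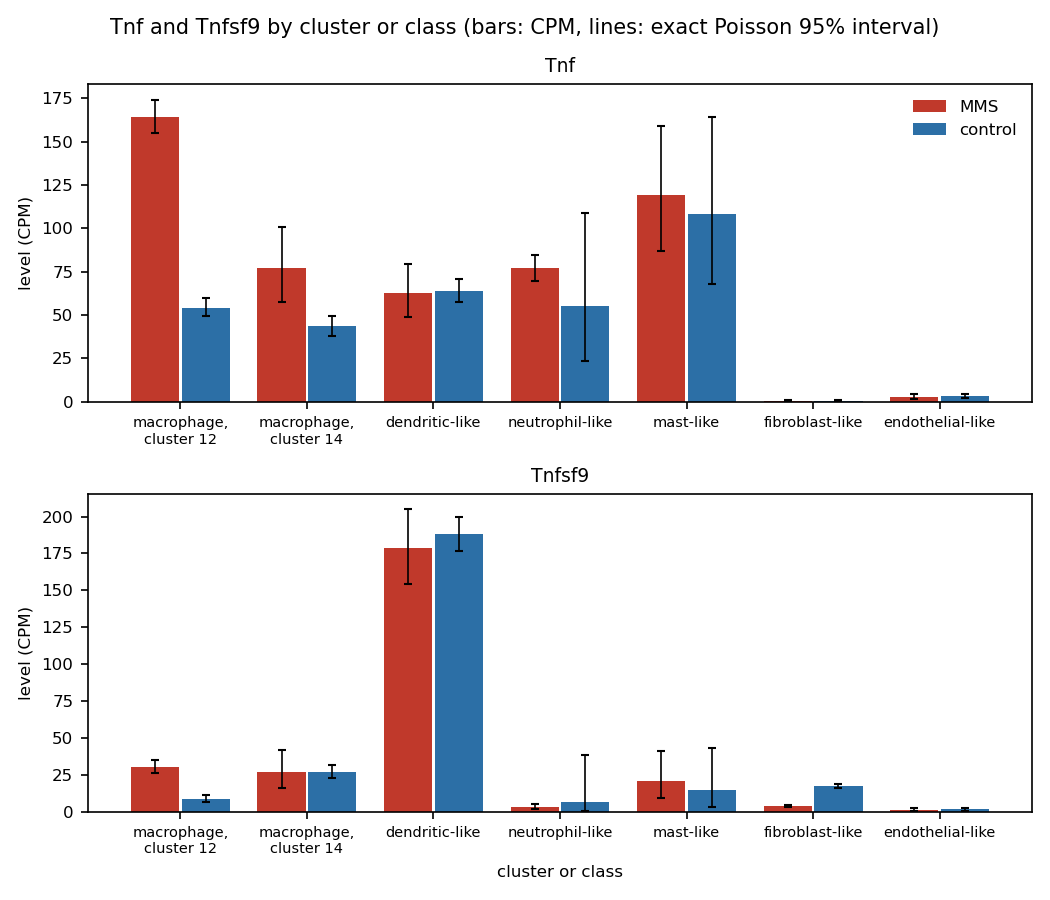
Level of Tnf (top) and Tnfsf9 (bottom) in CPM in the macrophage clusters 12 and 14 and in 5 other classes, MMS in red left of control in blue, with exact Poisson 95% intervals as lines. Tnf in cluster 12 was 164 CPM in MMS and 54.3 CPM in control, whereas Tnfsf9 in dendritic-like cells was 178 and 188 CPM with overlapping intervals.

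In endothelial-like cells the TNF receptor Tnfrsf1b, RANK (Tnfrsf11a) and the decoy Tnfrsf23 were at least 2-fold higher in MMS, and the death receptor Tnfrsf25 at least 2-fold lower. These were 4 of 21 members with at least 10 UMIs, where 13.7% of 12913 genes differed by that much, 9.11% higher and 4.55% lower. With clusters weighted by the smaller cell number 2 of 21 did, beside 9.69% of all genes. They were Tnfrsf1b, at 1.03, and Tnfrsf11b, which had 14 MMS and 9 control UMIs and turned from 0.94 to -1.35. All 4 of the unweighted count are receptors, and 6 of the 21 were ligands. The median log2 ratio was 0.40 for the members and 0.05 for all genes.

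Tnfrsf1b had 53.2 CPM in MMS and 23.0 CPM in control endothelial-like cells (335 and 178 UMIs, log2 ratio 1.21, 0.94 to 1.48). Its ratio was 1.27, 1.27 and 1.45 in clusters 0, 2 and 3 and 0.33 in the venular cluster 4, marked by Selp and Vwf, which held 256 MMS and 100 control cells. With clusters weighted by the smaller cell number it was 1.03. Tnfrsf11a had 13.2 CPM in MMS and 4.0 CPM in control (83 and 31 UMIs, log2 ratio 1.72, 1.11 to 2.36). In the venular cluster, though, Tnfrsf11a had 20.4 CPM in MMS and 22 CPM in control, and its cluster-weighted ratio was 0.58. Tnfrsf23 had 16.8 and 8.0 CPM (log2 ratio 1.07, 0.61 to 1.55) and a weighted ratio of 0.48.

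Tnfrsf25 had 8.25 CPM in MMS and 17.3 CPM in control endothelial-like cells (52 and 134 UMIs, log2 ratio -1.07, -1.56 to -0.59). In cluster 2 it had 6.40 CPM in MMS and 23.0 CPM in control, and in cluster 3 it had 17.5 and 16.7 CPM, so the gap lay in the first of these. The ligand TRAIL (Tnfsf10) was nearly level, at 152 CPM in MMS and 169 CPM in control, while its receptor Tnfrsf10b had 50.3 and 31.2 CPM (log2 ratio 0.69). Tnfrsf1a (log2 ratio 0.56) and Ltbr (110 CPM in MMS, 72.0 CPM in control) were higher by less than 2-fold, as were Cd40 (11.1 and 8.77 CPM) and the decoy Tnfrsf22 (9.68 and 6.58 CPM). Lower by less than 2-fold were Fas (44.9 CPM in MMS, 64.9 CPM in control), Tnfrsf21 (13.5 and 24.0 CPM), Tnfsf12 (79.7 and 107 CPM) and Tnfsf13 (35.9 and 57.9 CPM). Tnfrsf11b had 14 MMS and 9 control UMIs. Neutrophil markers summed to 78.1 CPM in MMS and 2.06 CPM in control endothelial-like cells, and mural markers to 575 and 323 CPM. Their part in these results was not tested.

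In mural-like cells, the pericytes and smooth muscle of vessels, Tnfrsf12a was higher at 48.3 CPM in MMS and 23.4 CPM in control (167 and 36 UMIs, log2 ratio 1.05, 0.52 to 1.61). Tnfsf13 was lower at 14.5 CPM in MMS and 39.0 CPM in control (log2 ratio -1.43, -2.00 to -0.87). Tnfsf10 was lower at 25.7 CPM in MMS and 55.2 CPM in control (log2 ratio -1.10, -1.55 to -0.66), but its ratio was 1.86 with the cells clustered at Leiden resolution 2.0, so it has no stable direction. With Tnfrsf11a (26 and 5 UMIs) and Tnfrsf23 (38 and 8 UMIs), 5 of 18 members differed by at least 2-fold, 3 higher and 2 lower, where 14.9% of 12292 genes did, 9.01% higher and 5.91% lower. Tnfrsf1a (256 CPM in MMS, 218 CPM in control), Tnfrsf21 (81.5 and 83.2 CPM), Ltbr (79.5 and 67.6 CPM) and Tnfrsf1b (21.4 and 16.2 CPM) lay closer together. Fas (21.7 and 41.6 CPM) and Tnfsf12 (91.7 and 146 CPM) were lower by less than 2-fold. Markers of other cell types differed in this class: lining fibroblast markers summed to 24660 CPM in MMS and 1552 CPM in control, fibroblast markers to 8675 and 3913 CPM, and endothelial markers to 2468 and 4497 CPM. Their part in the mural-like results was not tested.

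The smaller classes carried the lymphocyte and granulocyte members. T or NK-like cells (27 MMS, 68 control) had Ltb, a subunit of the lymphotoxin heterotrimer, at 657 CPM in MMS and 848 CPM in control. They had the co-stimulatory receptors Tnfrsf18 (GITR) at 212 and 206 CPM and Tnfrsf4 (OX40) at 77.8 and 39.0 CPM, the last from 18 MMS and 17 control UMIs. In each library 1 cell held many of these Tnfrsf4 UMIs, 11 in MMS and 8 in control. Tnfsf11 was also present in T or NK-like cells, at 69.1 CPM in MMS and 48.1 CPM in control, from 16 and 21 UMIs. Levels in this class are thus read from few UMIs. Of all Ltb UMIs in kept MMS cells, 63.6% were in neutrophil-like cells, at 84.5 CPM, a class with 7 Ltb UMIs in the control library. Neutrophil-like cells had Tnf at 77.0 CPM in MMS and 55.2 CPM in control (408 and 8 UMIs). Dendritic-like cells had Tnfrsf1b at 91.4 CPM in MMS and 44.9 CPM in control (log2 ratio 1.03). Mast-like cells (35 MMS, 36 control) had Tnfrsf11a at 122 CPM in MMS and 34.5 CPM in control (47 and 7 UMIs, log2 ratio 1.82, 0.67 to 3.21). These UMIs lay in 15 MMS and 6 control cells. Of those in MMS, 13 were in 1 cell, which the interval does not take into account. Members with few UMIs in any class were Lta (8 MMS and 9 control UMIs over the matrices), Tnfsf18 (8 and 11), Tnfsf4 (9 and 1), Tnfrsf8 (20 and 6) and Tnfrsf19 (14 and 7), too few for a statement on their level.

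Across cell classes, some members had the same direction nearly everywhere. In 19 clusters with at least 20 cells of each library, Tnfrsf1b was higher in MMS in 18 of the 18 in which it had at least 10 UMIs and a UMI in each library, with log2 ratios of 0.016 to 1.45 and a median of 0.68. Tnfsf12 was lower in 18 of 18 such clusters, with a median of -0.46. Of 10623 genes measured in at least 10 clusters, 161, or 1.52%, lay on 1 side of equality in every cluster measured, and 2 of 12 members did. A ratio as near to equality as the lowest for Tnfrsf1b could turn with the scaling. Fas was lower in 17 of 19 clusters (median -0.60), Ltbr higher in 17 of 18 (0.43) and Tnfrsf1a higher in 16 of 19 (0.27). Tnfrsf12a showed no such pattern, being higher in 7 and lower in 10 of 17 clusters. All clusters come from the same 2 libraries, so these counts describe the libraries and are not independent observations.

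Genes downstream of these receptors were read from pathway lists. Of 12 NF-kappaB target genes with at least 10 UMIs in endothelial-like cells, 9 were at least 2-fold higher in MMS and 0 lower, beside 9.11% and 4.55% of all genes, with a median log2 ratio of 1.40 against 0.05 over all genes. Vcam1, an adhesion molecule for leukocytes, had 65.7 CPM in MMS and 13.4 CPM in control, and Icam1, another, had 239 and 59.5 CPM. The cytokine Il6 had 42.2 and 2.58 CPM in these cells. With clusters weighted by the smaller cell number, 4 target genes were at least 2-fold higher and the median was 0.68. Over all 12913 genes so weighted, 811 were higher and 440 lower, with a median of 0.07. Weighted in this way, the log2 ratios of Vcam1 (0.69) and Icam1 (0.67) fell inside 2-fold, while that of Il6 was 2.52. In macrophage or monocyte-like cells 3 of 12 targets were at least 2-fold higher and 0 lower (median 0.73), beside 5.07% and 4.62% of all genes. With clusters weighted 8 were higher (median 1.32), beside 880 higher and 466 lower of 12849 genes (median 0.01). The 3 higher without weighting included the neutrophil chemokines Cxcl1 (126 CPM in MMS, 32.9 CPM in control) and Cxcl2 (2507 and 880 CPM). The other was Mmp3, with 13 MMS and 5 control UMIs. In fibroblast-like cells 4 of 14 were higher and 4 lower, beside 10.2% and 9.80% of all genes. Mmp3, a matrix protease, had 198 CPM in MMS and 75.2 CPM in control there, and Il6 had 10.9 and 36.8 CPM. With clusters weighted 3 were higher and 0 lower, beside 1367 higher and 1137 lower of 16144 genes. The log2 ratio of Il6 then moved from -1.76 to -0.52. In mural-like cells 4 of 12 were higher and 0 lower, beside 9.01% and 5.91% of all genes. Dendritic-like cells (66 MMS, 338 control) went the other way, with 0 of 11 higher and 3 lower (median -0.37). Over all 11266 genes in that class, 917 were higher and 585 lower (median 0.11).

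Signalling genes between receptor and target were read the same way. Of 21 TRAF, ubiquitin and death-domain adaptors, 1 was at least 2-fold higher in macrophage or monocyte-like cells, beside 5.07% of all genes. It was Tnfaip3, an inhibitor of NF-kappaB signalling, at 187 CPM in MMS and 60.2 CPM in control. In endothelial-like cells the 1 higher gene was Traf1, at 17.8 CPM in MMS and 4.0 CPM in control, beside 9.11% of all genes. In fibroblast-like cells Traf1 was higher (11.6 CPM in MMS, 4.04 CPM in control) and Traf5 lower (2.71 and 8.91 CPM), beside 10.2% and 9.80% of all genes. The cluster-weighted ratio of Traf1 there was 0.00. None of the 15 NF-kappaB kinases and subunits passed 2-fold in fibroblast-like or macrophage or monocyte-like cells, where 20.0% and 9.69% of all genes did, in that order. Nfkbia, which holds NF-kappaB in the cytoplasm, had 699 CPM in MMS and 427 CPM in control macrophage or monocyte-like cells, and 186 and 305 CPM in fibroblast-like cells. In endothelial-like cells 2 of this list were at least 2-fold higher, Map3k14, the NF-kappaB-inducing kinase, at 18.4 CPM in MMS and 8.51 CPM in control, and Tab1, with 48 and 28 UMIs, beside 9.11% of all genes. With clusters weighted it was 0 of 15, beside 811 higher and 440 lower of 12913 genes. In mural-like cells 3 of 15 were higher and 0 lower, beside 9.01% and 5.91% of all genes. They were Tab1 (54 MMS and 8 control UMIs), Nfkbie (32 and 5) and Map3k14 (24 and 5). The interval of the log2 ratio of Map3k14 there, -0.32 to 2.84, includes 0.

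Of the genes of RANK signalling and osteoclast differentiation, 3 of 9 were at least 2-fold higher and 1 lower in macrophage or monocyte-like cells, beside 5.07% and 4.62% of all genes. Acp5, the tartrate-resistant acid phosphatase, had 31.7 CPM in MMS and 5.82 CPM in control, and Mmp9, a gelatinase, had 10.8 and 36.7 CPM. The others that were higher were Ctsk (756 and 104 UMIs), which fibroblast-like cells also carry, and Src (11 and 7 UMIs). Fibroblast-like cells carried Acp5 too, at 72.05 CPM in MMS and 38.28 CPM in control. Fibroblast markers were higher in MMS cells of the macrophage or monocyte-like class, and their part in these values was not tested. The Mmp9 difference was -0.01 on the log2 scale with clusters weighted. In mural-like cells 5 of 9 were higher and 0 lower (median 1.14), beside 9.01% of all genes: Acp5 (110 MMS and 12 control UMIs), Itgb3 (66 and 4), Mitf (109 and 22), Ctsk (909 and 93) and Csf1r (34 and 3). Lining fibroblast markers were also higher in MMS cells of the mural-like class. MMS lining-like cells had Acp5 at 87.7, Itgb3 at 17.2, Mitf at 54.5, Ctsk at 1019 and Csf1r at 2.14 CPM. The part of such cells or their RNA in the mural-like count was not tested. In endothelial-like cells 3 of 8 were higher and 1 lower, beside 9.11% and 4.55% of all genes. The higher genes were Itgb3 (110 MMS and 13 control UMIs), Car2 (24 and 7) and Ctsk (31 and 18), and the lower was Acp5 (10 and 55). In fibroblast-like cells 4 of 11 were higher and 1 lower, beside 10.2% and 9.80% of all genes. Among these the protease gene Ctsk had 895 CPM in MMS and 318 CPM in control, and the transcription factor gene Fos 1397 and 4160 CPM. With clusters weighted 3 of the 11 were higher and 0 lower, beside 1367 higher and 1137 lower of 16144 genes. Of the 6 genes that shed or process TNF family proteins, Timp3, an inhibitor of the sheddase Adam17, was lower in fibroblast-like cells, at 78.3 CPM in MMS and 402 CPM in control (log2 ratio -2.36, but -0.41 with clusters weighted). The protease gene Furin was higher, at 95.3 and 41.1 CPM (log2 ratio 1.22, and 0.83 weighted), so neither passed 2-fold with clusters weighted. In macrophage or monocyte-like cells none of the 6 passed 2-fold, and Adam17 had 97.4 CPM in MMS and 82.2 CPM in control. Among family genes outside the symbol rule, the ligand Eda had 3.61 CPM in MMS and 8.89 CPM in control fibroblast-like cells (log2 ratio -1.30, and -0.30 with clusters weighted).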

How the data were processed

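Synovium of 20 pooled knees per group was dissociated and run on the 10x Genomics Chromium 3' v3.1 kit, per the labels' protocols. The authors deposited whole-number UMI counts, a value per gene and barcode and not normalized. The matrix headers name Cell Ranger 5.0.0. In the submitters' processing notes it is Cell Ranger 2.0.0, with the build mm10. Alignment options are not given in the sources read. Coordinates are from GENCODE M21, which uses GRCm38, the assembly behind mm10. The matrices held 85597195 UMIs in 5286 MMS barcodes and 84900876 UMIs in 8810 control barcodes, with a lowest barcode total of 500.

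Barcodes under 1000 UMIs or 500 genes, or over 10% mitochondrial UMIs, were dropped. Scrublet, in scanpy 1.11.5, then called doublets in each library, and 106 of 3871 MMS and 184 of 7075 control cells were removed. Libraries were clustered together (2000 variable genes without the members, 30 principal components, Leiden resolution 1.0) with no batch correction. Clusters were named from marker lists, with score thresholds set after the clusters were seen. The members and lists were chosen with earlier results of these data known.

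The UMIs of each class in each library were added up and given as CPM of the class total, with exact Poisson intervals. Ratios of MMS over control have exact conditional binomial intervals, and printed intervals of shares are Clopper-Pearson. A share of 0 cells is given with the limit that 3 counts would set. All cover counting error only, since there was 1 library per group and no test was possible. Genes with at least 10 UMIs in a class entered the counts of 2-fold differences. A member was named where the library in which it was higher had at least 50 UMIs, in at least 2% of the class cells, and at least 0.5 times its level over all kept cells. Genes with few UMIs that are named beside a small count were picked with their values in view. The ratio code was tested on simulated data. Alternatives changed the cell filters, clustering, scaling, gene minimum, fold and cells counted. Whether class differences reflect pooled animals, dissociation or library depth cannot be told apart.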

Additional observations from a re-analysis of the deposited data

Results flagged for a closer look

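Tnfrsf25, the death receptor for Tnfsf15, had opposite directions in the main classes, with a log2 ratio of MMS over control of 1.17 in fibroblast-like cells and -1.07 in endothelial-like cells. The difference between the classes was not tested. Within the lining fibroblast cluster Tnfrsf25 had 1.75 CPM in MMS and 1.69 CPM in control, and within the Mmp13 cluster 1.79 and 2.77 CPM, so neither showed the class difference. Within the endothelial clusters the ratio was -1.71, -1.85, 0.07 and -0.28 in clusters 0, 2, 3 and 4, from at most 59 UMIs per library.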

How the results depend on the processing

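No paired analysis was possible because each group had 1 library, and for the same reason no replicate could be left out. Of 28 members in fibroblast-like cells, 14 differed by at least 2-fold. That count was 6 of 16 with cells thinned to 2000 UMIs (16.4% of all genes), 7 of 28 with clusters weighted by the smaller cell number (15.5%), 6 of 28 at 3-fold (10.5%), 4 of 18 in lining-like cells (12.2%) and 9 of 27 without cluster 21 (21.2%). In macrophage or monocyte-like cells (3 of 24) it was 5 of 26 with at least 2000 UMIs per cell (10.1%), 5 of 24 with each cell weighted equally (10.3%), 6 of 18 thinned (10.2%), 7 of 34 with any UMI (19.4%), 7 of 24 at 1.5-fold (21%) and 1 of 24 at 3-fold (4.19%). In endothelial-like cells (4 of 21) it was 2 of 21 with clusters weighted (9.69%), 10 of 33 with any UMI (24.5%), 11 of 21 at 1.5-fold (27.5%) and 1 of 21 at 3-fold (6.37%). In mural-like cells (5 of 18) it was 3 of 16 at a mitochondrial limit of 5% (13.4%), 3 of 14 at Leiden resolution 2.0 (20.9%), 2 of 9 thinned (17.2%), 14 of 31 with any UMI (26.3%), 10 of 18 at 1.5-fold (31.2%) and 0 of 18 at 3-fold (6.05%).

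The fibroblast-like Tnfsf11 log2 ratio (2.02) was 2.79 with each cell weighted equally, 2.39 thinned, 1.22 with clusters weighted, 2.71 in sublining-like cells and 0.84 without cluster 21. For Tnfrsf11b (-0.28) it was -0.57 and -0.55 at 500 and 2000 UMIs per cell, -0.78 at a mitochondrial limit of 20%, -0.59 at resolution 2.0, 0.18 with each cell weighted equally and 0.33 thinned. It was 0.28 with clusters weighted, -1.94 and 0.37 in lining-like and sublining-like cells, 0.99 with cluster 27 and -0.74 without cluster 21. The log2 difference in Tnfsf11 per Tnfrsf11b (2.30) was 2.84 at the 20% limit, 0.95 with clusters weighted or with cluster 27, and 1.58 without cluster 21.

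Among ratios past 2-fold, direction turned for Tnfsf15 in fibroblast-like cells (-0.058 with clusters weighted, -0.59 without cluster 21), for Tnfrsf25 there (-0.77 with clusters weighted) and for Tnfsf10 in mural-like cells (1.86 at resolution 2.0). Of 39 other ratios inside 2-fold, Tnfrsf11b in fibroblast-like cells (above) aside, 15 turned in at least 1 alternative, 13 of them beyond the reported interval. In fibroblast-like cells these included Tnfsf13b (-0.34, but 1.28 with clusters weighted and 0.46 thinned) and Tnfrsf12a (0.60, but -0.15 with clusters weighted and -0.22 in lining-like cells). In macrophage or monocyte-like cells they included Cd40 (0.22, but -0.11 with clusters weighted). The cause was not tested. Of 760 alternative values over 54 single-member ratios, 641 stayed within the interval of the reported one. Of 15 ratios past 2-fold, 12 fell inside it in at least 1 alternative. The settings with clusters 27 and 7 added or cluster 21 left out were chosen after seeing the data. Lymphocyte, mast and control neutrophil-like values rest on few cells.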
